A study of Homo sapiens with 65 samples.

Results

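The genes described here are the WNT ligands and their cell-surface receptors: 19 WNT genes, 10 Frizzled (FZD) genes and 4 co-receptor genes (LRP5, LRP6, RYK and ROR1). They were found by gene symbol among the 58302 Ensembl gene identifiers of the fragment count table, and all 33 were present. The rule that chose them was membership of these gene families, set with earlier results of these data known. They were followed through RNA sequencing of human pluripotent stem cells that were differentiated to blood-forming mesoderm or to endoderm.

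WNT proteins are secreted, lipid-carrying signals. The acyltransferase PORCN attaches the lipid and the carrier WLS brings the ligand to the cell surface. There a ligand binds a Frizzled receptor, and together with LRP5 or LRP6 this stabilises β-catenin, which acts with TCF/LEF factors on target genes. ROR1 and RYK are receptors with kinase-like domains that bind WNT5A and its relatives and feed routes that do not need β-catenin. WNT signalling drives formation of the primitive streak, from which mesoderm and endoderm arise, and is known for roles in endoderm patterning, vessel growth and the emergence of blood from endothelium.

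All 65 libraries came from the human embryonic stem cell line H9 carrying 2 heterozygous reporters, mCHERRY at SOX17 and GFP at RUNX1C. WT is this reporter line. KO is its derivative in which CRISPR editing removed the DNA-binding domain of RUNX1, a transcription factor needed for blood formation. The labels do not say whether KO is 1 clone, and on KO libraries of days 2 and 4 only the title, not the genotype field, gives the deletion. The mesoderm medium held BMP4 (20 ng/ml), activin A, VEGF, SCF and FGF2 from day 0, and from day 2 to day 4 also the TGF-β receptor inhibitor SB431542 (3 µM) and CHIR 99021 (3 µM). After day 4 it held VEGF, SCF, FGF2 and IGF2. CHIR 99021 inhibits GSK3 and so stabilises β-catenin without a ligand. The endoderm medium began with activin A, CHIR (2 µM, named so in the endoderm labels) and the PI3-kinase inhibitor PI-103, and from day 1 held activin A and the BMP receptor inhibitor DMH-1 (1 µM). Unsorted mesoderm cultures of WT and KO were sampled on days 0, 2 and 4 with 4 libraries each, and unsorted WT endoderm cultures on days 0, 2, 4 and 7 with 3 libraries each. CD34+ cells from the mesoderm cultures were sorted by SOX17 reporter and CD43, a surface marker of blood cells. Day 7 gave SOX17+CD43- endothelial cells (WT 4, KO 4) and SOX17-CD43- cells (WT 4, KO 3). Day 12 gave SOX17+CD43- cells (WT 4, KO 4), 1 KO library of SOX17-CD43- cells, and for WT the CD43+ fractions SOX17+CD43+ (2 libraries) and SOX17-CD43+ (3 libraries). The stated purpose was to follow transcription along differentiation, to find RUNX1-dependent transcripts and to set mesoderm beside endoderm.

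Libraries held 10366048 to 19081031 counted fragments (median 15837038). RUNX1 itself was lower in KO than in WT on day 7 without overlap, at 1.74 to 2.64 RPKM against 5.60 to 9.47 RPKM in SOX17+ cells and 2.28 to 2.55 RPKM against 5.19 to 7.46 RPKM in SOX17- cells. In unsorted day 4 cultures the ranges overlapped, at 0.196 to 4.19 RPKM in KO and 1.73 to 4.40 RPKM in WT. Marker genes followed the labelled types. Summed primitive streak markers reached 957 to 1269.6 RPKM in WT mesoderm on day 2 against 1.67 to 2.20 RPKM on day 0, all 6 endothelial markers were at 1 RPKM or more in every CD43- fraction, and the 6 endoderm markers summed to 12589 to 14987 RPKM in day 7 endoderm. Some libraries stood apart. In mesoderm on day 4, WT replicate 3 and KO replicate 4 had the lowest mesenchyme marker sums of their groups, 96.0 and 159 RPKM against at least 296 RPKM in the other libraries. They also had the lowest endothelial and the highest primitive streak marker sums of their groups. In WT mesoderm on day 2, replicate 2 had an endoderm marker sum of 1232 RPKM against at most 440.3 RPKM in the others. No pair of replicates agreed within sampling noise.

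Levels are given as RPKM, fragments scaled by transcript length and library size, which can be set side by side between genes. Differences are log2 fold changes of the counts from edgeR's quasi-likelihood test. The leading ones are given with their standard error (SE) and a Benjamini-Hochberg p-value adjusted over all genes of the fit, and a gene was called changed at an adjusted p under 0.05. Replicates were libraries, and in bulk RNA fewer cells of a type and less RNA per cell cannot be told apart.

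Of the 33 genes, 25 reached a group mean of 1 RPKM in at least 1 of the 19 groups: 11 ligands, all 10 Frizzleds and all 4 co-receptors. The 8 that never did were all ligands. Their highest group means were 0.0235 RPKM for WNT1, 0.447 RPKM for WNT7A, 0.0729 RPKM for WNT7B, 0.319 RPKM for WNT8B, 0.159 RPKM for WNT10A, 0.347 RPKM for WNT10B and 0.267 RPKM for WNT16. WNT2B came closest to the threshold, at 0.989 RPKM in day 7 KO SOX17+ cells, although 21.2% of its exon bases are shared with ST7L on the opposite strand and whether the counting used strand is not known from the sources at hand. FZD3, FZD6, FZD7, FZD8, LRP5, LRP6 and RYK were at 1 RPKM or more in every group. These receptors were thus detected throughout, while ligands reached that level mainly on certain days. In WT mesoderm 1 ligand was at 1 RPKM or more on day 0, 7 on day 2 and 5 on day 4. In endoderm the number went from 0 on day 0 to 3, 2 and 3 on days 2, 4 and 7, and it was 0 in WT SOX17+CD43- and SOX17-CD43+ cells of day 12.

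**Figure D1:**
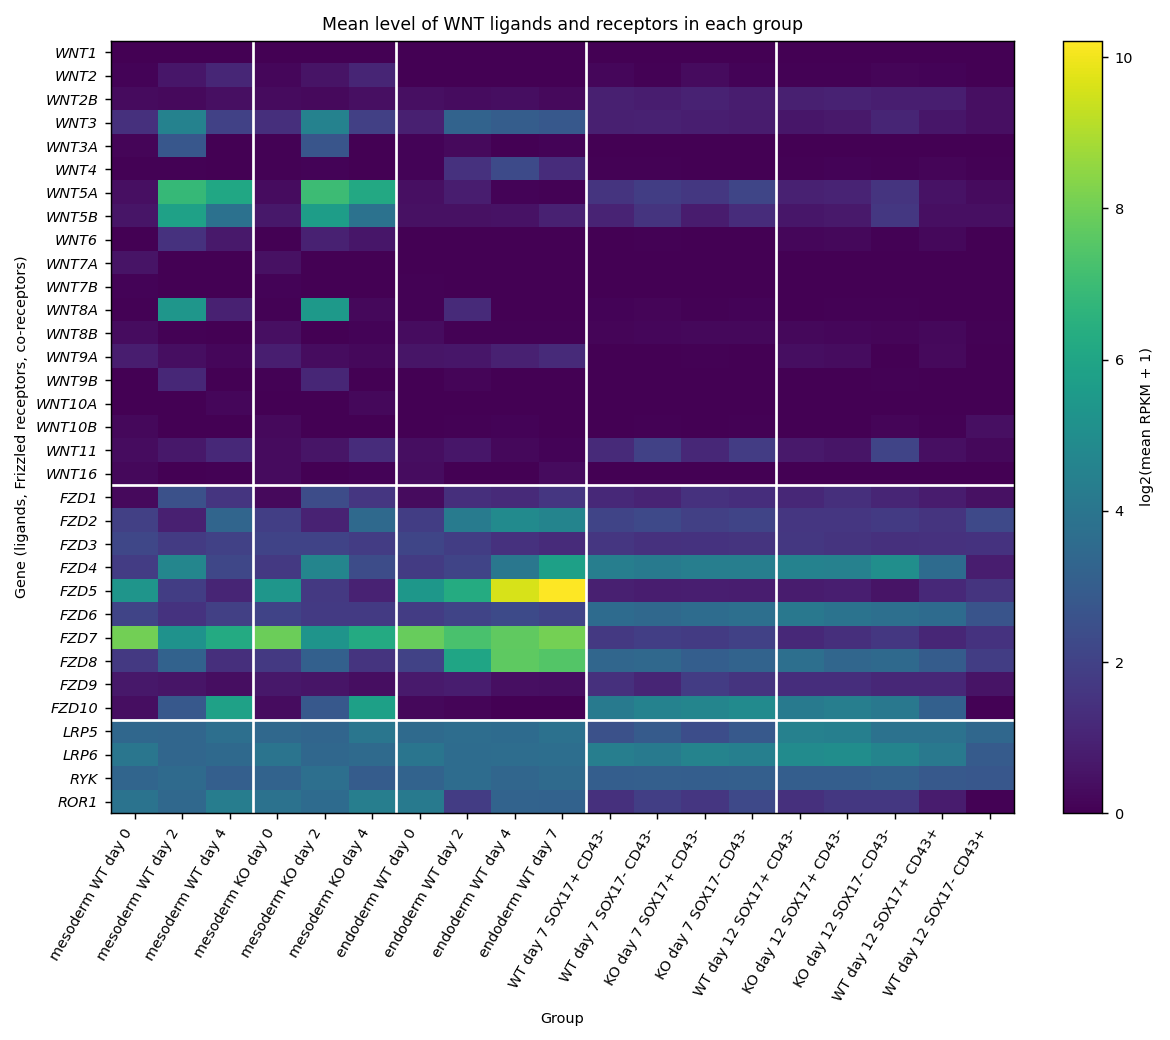
Mean level of each of the 33 genes (rows, ordered by role) in each of the 19 groups (columns) as log2(mean RPKM + 1). The ligand block is bright on day 2 of mesoderm, where WNT5A averaged 114 RPKM in WT, and FZD5 is brightest in endoderm on days 4 and 7, with means of 781 and 1189.9 RPKM.

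Between day 0 and day 2 of mesoderm differentiation WNT ligands appeared and the Frizzled receptors changed over. In WT cells 28 members had enough counts to be tested, and 13 rose and 9 fell. Called members were thus 22 of 28, where 45.1% of all genes tested were called, 22.2% as higher and 22.9% as lower. Of 14 ligands tested 8 rose and 4 fell, of 10 Frizzleds 4 rose and 4 fell, and of 4 co-receptors 1 rose and 1 fell. The summed ligand level went from 5.16 ± 1.32 RPKM on day 0 to 244 ± 25.5 RPKM on day 2 (SD, n = 4).

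WNT8A, a ligand of the primitive streak, was at 0.0319, 0.110, 0.0626 and 0 RPKM in the 4 WT day 0 libraries and at 58, 24.1, 43.1 and 35.7 RPKM on day 2, a log2 fold change of 9.53 (SE 1.09, adjusted p = 2.46e-07). It was near 0 in every day 0 library and above 20 RPKM in every day 2 library, and by day 4 it was back to 0.0876, 0.0577, 3.43 and 0.0675 RPKM. The only day 4 library above 1 RPKM was replicate 3. The fall from day 2 was -5.42 (SE 0.77, adjusted p = 4.94e-06) on the log2 scale.

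WNT3A, which acts in the streak and maintains posterior mesoderm, went from 0.114, 0.0521, 0.0892 and 0.101 RPKM to 10.2, 2.68, 5.51 and 5.30 RPKM and then to 0.0416, 0, 0.0404 and 0 RPKM on day 4. The day 2 libraries stood above those of days 0 and 4. The changes were 6.01 (SE 0.47, adjusted p = 9.34e-10) up to day 2 and -7.94 (SE 0.56, adjusted p = 2.32e-10) from day 2 to day 4, the largest fitted fall of a member over that step. WNT8A and WNT3A thus both peaked on day 2 among the days sampled, and their promoters are shown for that reason, as the bases before the RefSeq transcription start on GRCh38.p14 with CG dinucleotides in capitals. The GENCODE 29 annotation places the WNT3A gene at chr1:228007051-228061260 (plus strand) and WNT8A at chr5:138083892-138092365 (plus strand), and its gene starts differ from the RefSeq starts. The windows are chr1:228006748-228006997 for WNT3A and chr5:138083783-138083891 for WNT8A, where only the 109 bases outside annotated exons are printed.
WNT3A: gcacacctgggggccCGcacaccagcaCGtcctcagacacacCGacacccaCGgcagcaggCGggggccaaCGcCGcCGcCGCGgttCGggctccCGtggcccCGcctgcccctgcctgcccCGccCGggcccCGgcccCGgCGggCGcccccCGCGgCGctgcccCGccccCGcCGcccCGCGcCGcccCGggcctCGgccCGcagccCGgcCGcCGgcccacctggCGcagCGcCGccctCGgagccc
WNT8A: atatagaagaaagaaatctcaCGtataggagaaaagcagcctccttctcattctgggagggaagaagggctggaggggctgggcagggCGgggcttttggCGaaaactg
The windows of 250 bases before the RefSeq starts have little in common in base composition. WNT3A holds 38 CG dinucleotides, more than 96.7% of 35116 such windows, while WNT8A holds 4, and 29.3% of windows hold fewer. Of the 250 bases 141 lie in annotated exons for WNT8A and 0 for WNT3A, so the WNT8A count is largely of exon sequence. The median over all windows was 11. The TCF/LEF core CTTTGA, searched on both strands, was in 11.2% of all windows and in 0 of the 27 windows of the 24 members with an entry. The T-box motif AGGTGT, also searched on both strands, was in 9.57% of all windows and in 3 member windows, those of WNT2B, WNT3A and WNT5B. In the WNT3A sequence above it lies on the opposite strand, as ACACCT near the 5′ end.

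WNT3, the ligand required for streak formation in mouse embryos, was already detected on day 0, at 2.59, 2.08, 0.844 and 1.22 RPKM. On day 2 it was at 19.9, 22.8, 24 and 22.5 RPKM and on day 4 at 2.87, 3.33, 2.16 and 3.27 RPKM. Its day 2 libraries lay within a narrow band, above every mesoderm library of days 0 and 4, and the changes were 3.73 (SE 0.28, adjusted p = 5.51e-10) and -2.94 (SE 0.27, adjusted p = 1.3e-08). WNT9B starts 47 bp from WNT3 on chromosome 17 with no protein-coding gene between them. WNT9B reached only 1.39, 0.585, 1.98 and 0.767 RPKM on day 2, with a rise of 5.65 (SE 0.66, adjusted p = 3.15e-07) and a day 2 to day 4 ratio of counts of 131 (95% counting interval 35.8 to 1089). WNT9A lies 59153 bp from WNT3A and WNT10A lies 6130 bp from WNT6, and neither WNT9A nor WNT10A was at 1 RPKM or more in any mesoderm group. WNT10B and WNT1, 6690 bp apart, were both below 1 RPKM in every group.

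WNT5A, the main ligand of the routes that do not need β-catenin, had the highest level of all ligands. It was at 0.0812, 0.640, 0.239 and 0.331 RPKM on day 0 and 105, 129, 112 and 112 RPKM on day 2, a change of 8.50 (SE 0.69, adjusted p = 1.45e-09). On day 4 it was at 48.1, 35.8, 138 and 45.1 RPKM. Replicates 1, 2 and 4 were below every day 2 library and replicate 3 was above them. The difference between days 4 and 2 did not pass the test over all libraries, at -0.77 (SE 0.48, adjusted p = 0.185), and without that replicate it was -1.42 (adjusted p = 0.0147). KO had the same arrangement with replicate 4 high, at 45.9, 37.7, 35.5 and 166 RPKM on day 4. There the difference was -0.83 (SE 0.48, adjusted p = 0.155) with all libraries and -1.67 (adjusted p = 0.00246) without replicate 4. Both high libraries had the lowest mesenchyme and endothelial marker sums of their groups and the highest primitive streak marker sums. Endothelial sums were 225 RPKM in WT (others 281 to 369.6) and 149.8 RPKM in KO (others 209.7 to 416). Primitive streak sums were 144 RPKM in WT (others 52.6 to 117) and 163 RPKM in KO (others 40.9 to 112). Of the 6 mesenchyme markers 5 were at 1 RPKM or more on day 4 in each genotype. Their sums were 96.0 to 797 RPKM in WT and 159 to 939.7 RPKM in KO. The part of any of these marker sets in the WNT5A result was not tested.

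WNT5B, its close paralog, was at 0.248, 0.461, 0.577 and 0.724 RPKM on day 0, 73.6, 28.4, 60.1 and 64 RPKM on day 2 and 13.2, 8.43, 22.2 and 7.76 RPKM on day 4. It rose by 6.83 (SE 0.47, adjusted p = 9.46e-11) and then changed by -2.13 (SE 0.36, adjusted p = 3.57e-05), so that all 4 day 4 libraries were below all 4 of day 2. WNT6 had 0 fragments in every WT day 0 library and was at 2.29, 0.626, 2.33 and 1.77 RPKM on day 2, at least 58.9-fold higher against a floor of 3 counts over the group, and its fall to day 4 was -1.47 (SE 0.45, adjusted p = 0.0108). WNT2, known from heart and lung mesoderm, ranged widely between the day 4 libraries, at 0.650, 2.65, 0.0788 and 1.20 RPKM, and its difference between days 4 and 2 was 1.05 (SE 0.67, adjusted p = 0.203). WNT11, a ligand of cell movement, was at 0.178, 1.43, 2.47 and 1.06 RPKM on day 4 and also did not pass the test, at 1.23 (SE 0.68, adjusted p = 0.136). By share of the summed ligand RPKM, day 2 was 47.6% WNT5A, 22.7% WNT5B, 16.2% WNT8A and 9.24% WNT3, and day 4 was 74.1% WNT5A and 15.4% WNT5B.

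**Figure D2:**
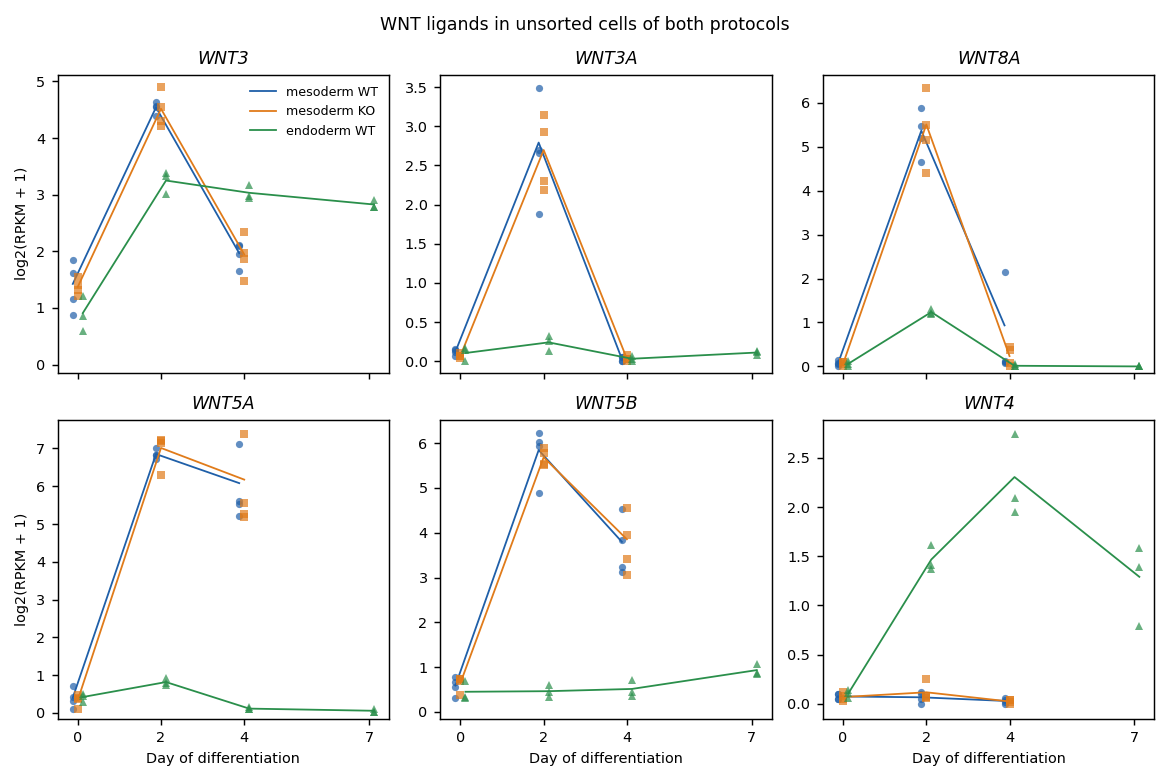
Level of leading WNT ligands in unsorted cultures against the day of differentiation, as log2(RPKM + 1). Points are libraries and lines join group means, for mesoderm WT, mesoderm KO and endoderm WT. WNT8A and WNT3A peak on day 2 in both mesoderm genotypes, with WT means of 40.2 and 5.92 RPKM, and 1 WNT5A library of each genotype stays high on day 4 (138 and 166 RPKM).

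Among the Frizzleds, FZD7 and FZD5 fell by day 2 while FZD4, FZD8, FZD1 and FZD10 rose, and FZD7 still had the highest mean level of them on day 2. FZD7, the main Frizzled of pluripotent stem cells, was at 404, 210.3, 198 and 225 RPKM on day 0, 17.8, 62, 34.5 and 28.1 RPKM on day 2 and 85.7, 91.9, 38.1 and 83.8 RPKM on day 4. Replicate 1 was high on day 0, as it was in KO, and replicate 3 was low on day 4. The changes were -2.86 (SE 0.37, adjusted p = 1.32e-06) and 1.07 (SE 0.35, adjusted p = 0.0133), and the second was 0.84 (adjusted p = 0.0537) without day 2 replicate 1. FZD5 went from 44.2, 35.1, 35.3 and 42 RPKM to 2.34, 1.60, 4.52 and 1.88 RPKM and 1.68, 0.710, 1.19 and 0.809 RPKM. It fell at both steps, with changes of -3.90 (SE 0.33, adjusted p = 3.17e-09) and -1.24 (SE 0.32, adjusted p = 0.00296), and its day 0 libraries were all above 30 RPKM.

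FZD4, which also serves as the receptor for the non-WNT ligand Norrin in retinal vessels, was at 2.99, 2.17, 2.41 and 2.57 RPKM on day 0, 21.5, 23.6, 23.6 and 31.2 RPKM on day 2 and 2.99, 2.85, 5.87 and 2.22 RPKM on day 4. The pulse was seen in all 4 libraries of day 2, with changes of 3.31 (SE 0.31, adjusted p = 1.21e-08) and -2.84 (SE 0.30, adjusted p = 9.54e-08). Of FZD4's exon bases 18.9% are shared with PRSS23 on the opposite strand, which limits how its counts can be read. FZD1 was pulsed less sharply, at 0.0671, 0.241, 0.263 and 0.213, then 5.36, 3.56, 3.37 and 6.69, then 2.73, 1.84, 1.35 and 2.07 RPKM. It rose by 4.61 (SE 0.32, adjusted p = 1.04e-10), and the change to day 4 was -1.25 (SE 0.26, adjusted p = 0.000364). FZD8 went from 1.69, 2.06, 2.38 and 2.71 to 9.02, 8.42, 8.06 and 8.01 and then 1.29, 0.524, 4.32 and 0.315 RPKM, and on day 4 replicate 3 was above the other 3 libraries. Its fall from day 2 to day 4 was -2.36 (SE 0.61, adjusted p = 0.00257).

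FZD10, a Frizzled known from the primitive streak, kept rising. It was at 0.488, 0.256, 0.239 and 0.203 RPKM on day 0, 10.9, 2.81, 5.04 and 5.42 RPKM on day 2 and 76.1, 50.9, 56.9 and 40.8 RPKM on day 4. The 3 days did not overlap, and the changes were 4.34 (SE 0.51, adjusted p = 3.78e-07) and 3.21 (SE 0.40, adjusted p = 1.02e-06). FZD2 dipped and returned, at 4.65, 3.07, 1.36 and 2.07 RPKM on day 0, 0.839, 0.964, 1.13 and 0.446 RPKM on day 2 and 6.76, 11.4, 7.32 and 10.9 RPKM on day 4. The fall was -1.71 (SE 0.35, adjusted p = 0.000425) and the rise 3.42 (SE 0.36, adjusted p = 7.64e-08), the largest rise of a member between days 2 and 4. From day 2 to day 4 in WT 6 members rose and 13 fell, where 51.4% of all genes were called (25.9% higher, 25.5% lower), and the ligands made up 7 of the 13 that fell while 1 ligand, WNT2B, rose.

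The co-receptors LRP5, LRP6 and RYK moved little, and the largest co-receptor change was that of ROR1 from day 2 to day 4. LRP6 was at 12.3, 15.1, 15.8 and 16.7 RPKM on day 0 and 8.37, 9.11, 9.48 and 10.4 RPKM on day 2, without overlap, a change of -0.67 (SE 0.11, adjusted p = 2.49e-05). FZD3, present in every group, changed by -0.49 (SE 0.18, adjusted p = 0.0305) over the same step, a call lost in 5 of 8 fits with 1 library left out. LRP5 differed by 0.00 (SE 0.16, adjusted p = 0.998) between days 2 and 0, and by 0.38 (SE 0.16, adjusted p = 0.0444) between days 4 and 2, a call lost in 7 of 8 fits that each left out 1 library. RYK rose by 0.24 (SE 0.07, adjusted p = 0.0106) to day 2 and then changed by -0.51 (SE 0.07, adjusted p = 7.94e-06). ROR1, a receptor of WNT5A, was at 15.9, 27.7, 9.56 and 23 RPKM on day 4, with replicate 3 lowest, and its change from day 2 of 0.95 (SE 0.33, adjusted p = 0.02) was lost in 4 of 8 such fits.

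KO cultures ran through the same steps. From day 0 to day 2, 12 members rose and 8 fell of 28 tested (43.3% of all genes called, 21.6% higher and 21.7% lower). From day 2 to day 4, 6 rose and 10 fell (50.5% of all genes called, 26% higher and 24.5% lower). WNT8A rose by 9.86 (SE 1.11, adjusted p = 2.02e-07), WNT5A by 8.92 (SE 0.71, adjusted p = 9.88e-10) and WNT3A by 6.70 (SE 0.51, adjusted p = 6.2e-10) on the log2 scale. FZD5 changed by -4.19 (SE 0.34, adjusted p = 1.27e-09) and FZD7 by -2.70 (SE 0.36, adjusted p = 2.72e-06). On day 4 FZD2 changed by 3.42 (SE 0.35, adjusted p = 5.35e-08), FZD10 by 3.22 (SE 0.40, adjusted p = 9.3e-07) and FZD4 by -2.55 (SE 0.30, adjusted p = 3.47e-07). Each of these has the direction given above for WT.

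The other called members of KO are given by role. Among ligands, WNT5B, WNT9B and WNT3 rose to day 2 by 6.48, 5.23 and 3.78 on the log2 scale. WNT9A, below 1 RPKM on average in both groups, changed by -1.51. WNT6 was also called higher and WNT7A, WNT8B and WNT16 lower, each below 1 RPKM on average in both groups. From day 2 to day 4, WNT8A, WNT3A, WNT3 and WNT5B fell with changes of -7.94, -7.78, -2.92 and -1.89, and WNT9B had a ratio of counts of 77.2 between the days (95% counting interval 26 to 377). WNT2B, below 1 RPKM on average on both days, rose by 0.76. Among Frizzleds, FZD10, FZD1, FZD4 and FZD8 rose to day 2 by 4.41, 4.32, 3.42 and 1.78, and FZD2 changed by -1.49. By day 4 FZD7 rose by 1.03, and FZD8, FZD5 and FZD1 changed by -2.0, -1.19 and -1.01. Of the co-receptors LRP6 changed by -0.55 and RYK by 0.52 to day 2, and by day 4 ROR1, LRP5 and RYK changed by 0.85, 0.71 and -0.80.

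Set directly against WT, KO showed no called member on day 0, 2 or 4 by edgeR's quasi-likelihood test, where 0% of all genes were called on each day. At an unadjusted p under 0.05 the members numbered 0, 2 and 2 of 28 tested on the 3 days. Over all 21612 genes tested the numbers were 146, 973 and 987. DESeq2 and limma called 0 members on each day. RYK and FZD3 in day 2 KO lay above WT without overlap. The differences were 0.19 (SE 0.07, adjusted p = 0.992) for RYK and 0.36 (SE 0.18) for FZD3, neither called. The share of all genes that separated in this way is not given here. For WNT5A the KO day 2 libraries were at 141, 146, 148 and 77.8 RPKM, with replicate 4 below the WT range and the other 3 above it, and the difference was 0.16 (SE 0.48, adjusted p = 1).

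Endoderm differentiation showed few ligands at low level and a large increase of Frizzled RNA. Of 22 members tested, 11 rose and 4 fell from day 0 to day 2 (55.5% of all genes called, 28.7% higher and 26.8% lower). From day 2 to day 4, 8 rose and 5 fell (42.4% called, 22.2% higher and 20.2% lower), and from day 4 to day 7, 5 rose and 1 fell (21.3% called, 11.2% higher and 10.1% lower). The summed Frizzled level went from 284 ± 17.6 RPKM on day 0 through 323 ± 15 and 1248 ± 209.9 RPKM to 1724 ± 144 RPKM on day 7 (SD, n = 3), while the summed ligands went from 3.51 to 14.5, 13.2 and 10.5 RPKM.

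FZD5 made up most of the increase. It was at 49.1, 41.1 and 34.2 RPKM on day 0 and 96.5, 66.4 and 67.8 RPKM on day 2. On day 4 it was at 871, 578 and 895 RPKM and on day 7 at 1207, 1289.7 and 1073 RPKM. Each day lay above the one before, with no overlap, and the day 7 mean was 1189.9 ± 109.5 RPKM (SD, n = 3). The changes were 0.90 (SE 0.18, adjusted p = 0.000774), 3.35 (SE 0.20, adjusted p = 1.87e-08) and 0.61 (SE 0.18, adjusted p = 0.0246) at the 3 steps, and the last was lost in 3 of the fits that left out 1 library. FZD8, a close relative of FZD5, rose earlier, from 2.45, 2.75 and 3.87 RPKM on day 0 to 68.8, 62.5 and 57.7 RPKM on day 2 and 214, 169 and 228 RPKM on day 4, and was at 170.5, 191 and 175 RPKM on day 7. It rose by 4.39 (SE 0.17, adjusted p = 1.23e-10) and by 1.70 (SE 0.15, adjusted p = 6.91e-07), with no overlap between days 0, 2 and 4.

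The promoters of these paralogs are shown because both rose in endoderm and, by day 2 of mesoderm, FZD8 rose by 1.93 (SE 0.60, adjusted p = 0.0111) while FZD5 fell. The GENCODE 29 annotation places FZD5 at chr2:207762586-207769563 (minus strand) and FZD8 at chr10:35638249-35642278 (minus strand). The printed 250 bases lie before the RefSeq transcription starts, which are upstream of those gene ends, at chr2:207769907-207770156 and chr10:35642297-35642546, each read 5′ to 3′ on the gene's strand with CG dinucleotides in capitals, from RefSeq on GRCh38.p14.
FZD5: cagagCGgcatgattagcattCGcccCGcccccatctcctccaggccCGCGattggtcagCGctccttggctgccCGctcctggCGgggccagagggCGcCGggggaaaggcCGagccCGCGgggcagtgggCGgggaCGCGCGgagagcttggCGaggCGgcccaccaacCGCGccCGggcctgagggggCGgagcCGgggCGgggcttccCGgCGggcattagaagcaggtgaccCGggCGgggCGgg
FZD8: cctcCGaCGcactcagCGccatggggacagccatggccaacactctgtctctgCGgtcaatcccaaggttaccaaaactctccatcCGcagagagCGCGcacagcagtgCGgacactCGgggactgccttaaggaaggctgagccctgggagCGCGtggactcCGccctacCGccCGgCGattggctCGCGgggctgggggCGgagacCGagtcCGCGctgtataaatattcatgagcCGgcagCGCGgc
FZD5 holds 30 CG dinucleotides, more than 87.6% of windows, and FZD8 holds 24, more than 76.3%. The letters TATAAA, searched on both strands, are in the FZD8 window, and were in 10.7% of all windows and in 2 member windows, the other being that of WNT5B. Neither the FZD5 nor the FZD8 window holds CTTTGA or AGGTGT on either strand.

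FZD4 rose late in endoderm. It was at 3.60, 2.70 and 3.45 RPKM on day 2, 18.1, 12.1 and 16.8 RPKM on day 4 and 56.2, 61.6 and 49.3 RPKM on day 7. Both steps separated all libraries, with changes of 2.28 (SE 0.16, adjusted p = 1.15e-07) and 1.84 (SE 0.15, adjusted p = 2.4e-06), while the step from day 0 to day 2 of 0.42 (SE 0.16, adjusted p = 0.0414) was lost in 4 of 6 fits with 1 library left out. FZD2 went from 2.78, 2.39 and 2.66 RPKM on day 0 to 15.3, 18.1 and 21 RPKM on day 2, a rise of 2.80 (SE 0.16, adjusted p = 4.27e-09), rose again by 0.68 on the log2 scale to day 4, and was at 33.8, 24.5 and 28.2 and then 23.2, 21.6 and 25.1 RPKM on days 4 and 7. FZD7 moved less, at 227 ± 10.4 RPKM (SD, n = 3), 153 ± 6.84 RPKM (SD, n = 3), 211 ± 8.13 RPKM (SD, n = 3) and 269 ± 24 RPKM (SD, n = 3), with changes of -0.56 (SE 0.09, adjusted p = 7.99e-05), 0.47 (SE 0.09, adjusted p = 0.000546) and 0.36 (SE 0.09, adjusted p = 0.00864) at the 3 steps. FZD10, high in mesoderm, was at 0.0706, 0.0884 and 0.149 RPKM on day 2 and 0, 0 and 0 RPKM on day 7. FZD1 rose by 2.76 (SE 0.25, adjusted p = 5.44e-07) to day 2, and its later change of 0.67 (SE 0.21, adjusted p = 0.0335) on day 7 was lost in 5 of 6 fits that left out 1 library, with log2 fold changes of 0.45 to 0.77 in those 5.

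**Figure D3:**
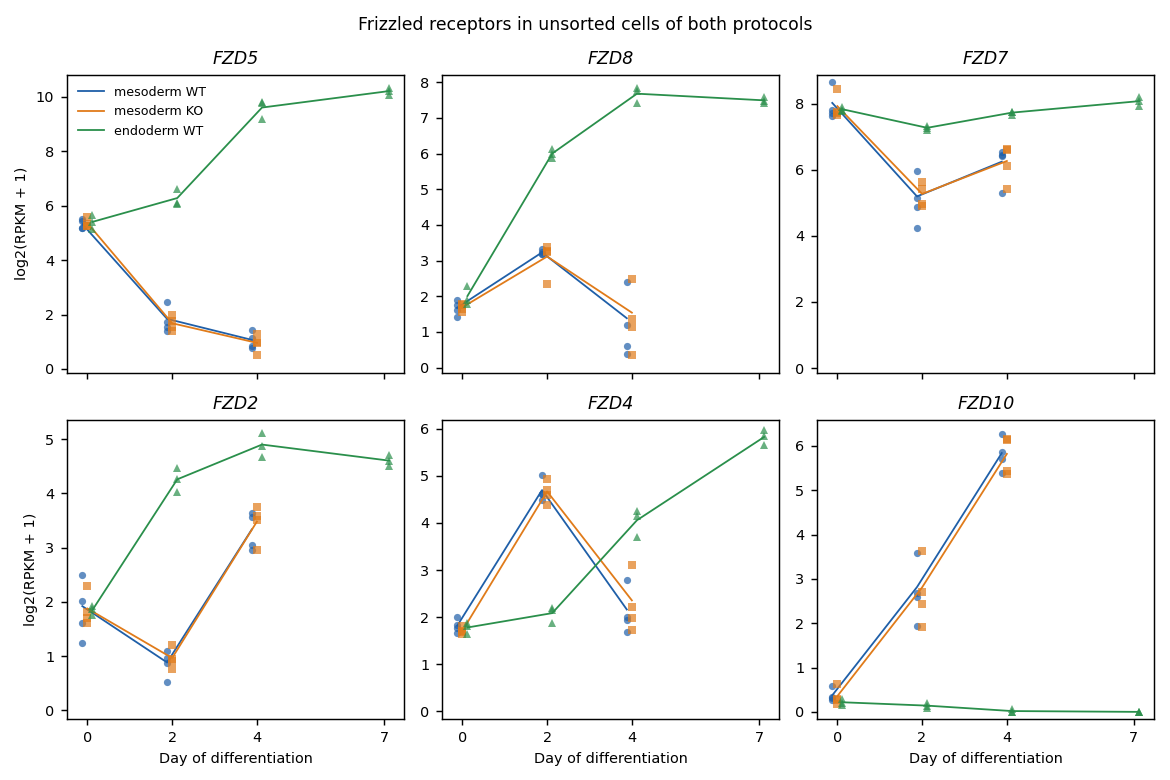
Level of 6 Frizzled receptors in unsorted cultures against the day of differentiation, as log2(RPKM + 1), with points for libraries and lines for group means. FZD5 climbs in endoderm to a day 7 mean of 1189.9 RPKM and FZD8 to a day 4 mean of 204 RPKM, and FZD10 climbs only in mesoderm, to a day 4 WT mean of 56.2 RPKM, in both genotypes.

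The ligand with the highest level in endoderm was WNT3, which went from 0.806, 1.31 and 0.512 RPKM on day 0 to 7.04, 9.40 and 9.10 RPKM on day 2, a rise of 3.27 (SE 0.23, adjusted p = 4.63e-08). It remained at 6.64, 8.06 and 6.86 RPKM on day 4 and 5.91, 5.84 and 6.53 RPKM on day 7, and made up 58.3%, 54.9% and 58% of summed ligand RPKM on days 2, 4 and 7. WNT4, known from kidney and gonad development, was at 0.0393, 0.0815 and 0.0981 RPKM on day 0, 2.05, 1.65 and 1.59 RPKM on day 2, 5.71, 2.85 and 3.26 RPKM on day 4 and 1.62, 0.728 and 1.99 RPKM on day 7. It rose by 4.60 (SE 0.49, adjusted p = 2.49e-06) and 1.17 (SE 0.31, adjusted p = 0.00746) and then fell, with a change of -1.45 (SE 0.32, adjusted p = 0.00454). The second rise was 0.80 (adjusted p = 0.0569) without day 4 replicate 1, the highest library. WNT8A was pulsed here too, at 0, 0.0884 and 0.0354, 1.33, 1.28 and 1.46 and 0, 0 and 0.0308 RPKM on days 0, 2 and 4. Its rise was 4.93 (SE 0.53, adjusted p = 7.52e-06) and its fall a ratio of counts of 127 (95% counting interval 22.4 to 5046). WNT9A, known from joint formation, was at 1.33, 1.49 and 1.22 RPKM on day 7, its highest group.

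Of the endoderm co-receptors ROR1 changed most. It was at 17.6, 17.5 and 17.1 RPKM on day 0, 2.89, 2.00 and 2.81 RPKM on day 2 and 7.75, 9.83 and 8.40 RPKM on day 4, a dip with no overlap between days. The changes were -2.75 (SE 0.18, adjusted p = 2.41e-08) and 1.76 (SE 0.18, adjusted p = 3.27e-06). LRP6 changed by -0.38 (SE 0.10, adjusted p = 0.00451) and RYK by 0.42 (SE 0.11, adjusted p = 0.00395) to day 2. FZD3 changed by -0.55 (SE 0.19, adjusted p = 0.0283) from day 2 to day 4, a call lost in 3 of 6 fits with 1 library left out.

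The protocols were compared through the difference of their changes from day 0, endoderm minus mesoderm, in WT. The day 2 and day 4 differences share the day 0 libraries, so they are given as separate values. On day 2 the change was higher in endoderm for 7 members and lower for 7 of 28 tested (29.5% of all genes called, 15.5% higher and 13.9% lower). FZD5 differed by 4.81 (SE 0.42, adjusted p = 8.76e-08), WNT4 by 4.81 (SE 0.82, adjusted p = 0.000212), FZD2 by 4.52 (SE 0.46, adjusted p = 7.41e-07) and FZD8 by 2.46 (SE 0.64, adjusted p = 0.00679). In the opposite direction WNT5A differed by -7.34 (SE 0.72, adjusted p = 4.62e-07), WNT5B by -6.78 (SE 0.76, adjusted p = 1.89e-06), FZD10 by -4.99 (SE 0.92, adjusted p = 0.000411) and WNT3A by -4.83 (SE 1.03, adjusted p = 0.0016). The other called members were FZD7 at 2.31, WNT9A at 1.48, FZD6 at 1.20, FZD4 at -2.87, FZD1 at -1.83 and ROR1 at -2.25, and the FZD6 call was lost in 12 fits with 1 library left out. Of these, WNT9A was below 1 RPKM on average in every group compared. WNT3, which rose in both protocols, differed by -0.45 (SE 0.41, adjusted p = 0.441), and WNT8A by -4.61 (SE 3.29, adjusted p = 0.314), neither past the threshold. For WNT8A the SE was large beside the difference. Its day 0 groups held only 6 fragments in mesoderm and 4 in endoderm, so this fit did not resolve the difference of its changes. The day 2 levels themselves did not overlap. WNT8A was at 24.1 RPKM or more in every WT mesoderm library and at 1.46 RPKM or less in every endoderm library.

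On day 4, 9 members were higher in endoderm and 6 lower (40.4% of all genes called, 20.5% higher and 19.9% lower). FZD5 led with 9.39 (SE 0.47, adjusted p = 7.03e-12), followed by WNT4 with 7.06 (SE 0.87, adjusted p = 1.84e-06) and FZD8 with 6.50 (SE 0.69, adjusted p = 2.41e-07). WNT5A was lowest among members with enough counts in both protocols, at -9.78 (SE 0.83, adjusted p = 1.1e-08). FZD4 changed side: it differed by -2.87 (SE 0.35, adjusted p = 6.01e-06) on day 2, when it peaked in mesoderm, and by 2.22 (SE 0.35, adjusted p = 3.14e-05) on day 4, when it rose in endoderm. FZD10 had so few fragments in day 4 endoderm (0, 0 and 0.0392 RPKM) that its fitted difference is not a usable size. Other differences on day 4 were 3.48 for WNT9A, 2.24 for WNT3, 1.76 for FZD2, 1.70 for FZD7 and 0.42 for RYK, and -4.47 for WNT5B, -3.13 for WNT11, -1.46 for ROR1 and -0.72 for FZD3. Of these, WNT9A was below 1 RPKM on average in every group compared.

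By share of the summed Frizzled RPKM, the leading receptor differed between groups. In WT mesoderm FZD7 was 81.8 ± 3.62% on day 0. On day 2 the shares were 38.8% FZD7, 28.9% FZD4, 9.75% FZD8 and 7.45% FZD10, and on day 4 they were 47.7 ± 12% FZD7 and 36.6 ± 8.73% FZD10. In endoderm FZD5 went from 23.7% on day 2 to 62.1 ± 4.09% on day 4 and 69 ± 0.781% on day 7, with FZD7 at 15.6% and FZD8 at 10.4% on day 7. In the sorted groups no Frizzled had a mean share above 40.4%, that of FZD4 in the single day 12 KO SOX17-CD43- library. Day 7 WT SOX17+ cells had 28.8 ± 3.42% FZD4, 25.3 ± 5.91% FZD10, 15.7% FZD6 and 13.6% FZD8, and SOX17-CD43+ cells of day 12 had 28.4 ± 5.74% FZD6, 19.8% FZD2, 13.9% FZD8 and 10.2% FZD5.

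**Figure D4:**
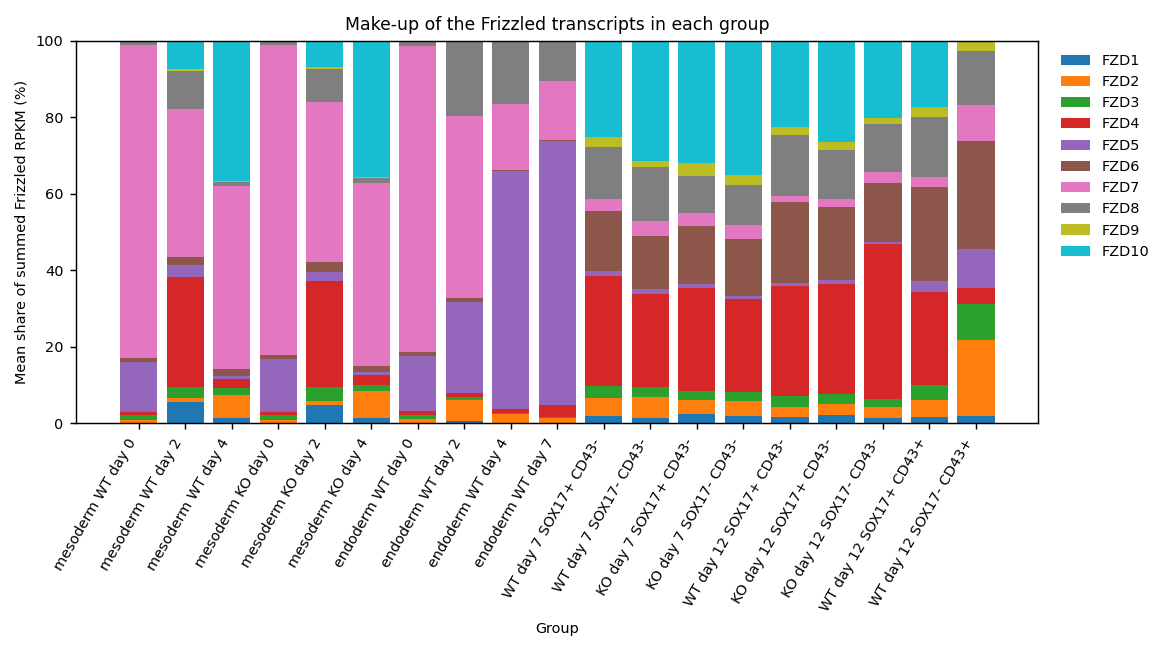
Mean share of each Frizzled gene in the summed Frizzled RPKM (vertical axis, percent) for each of the 19 groups. FZD7 fills most of the day 0 bars, FZD5 most of the endoderm bars of days 4 and 7, and the sorted groups are split among FZD4, FZD10, FZD6 and FZD8.

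Sorted endothelial cells of day 7 were first set against the unsorted WT mesoderm cultures of day 4. This step joins time, sorting and separate series of library numbers in the titles, which cannot be told apart. In a fit of the 8 WT libraries 6 of 20 members tested were higher in the SOX17+CD43- cells and 10 lower (62.8% of all genes called, 31.7% higher and 31.1% lower). WNT5A was at 2.22, 1.78, 1.74 and 1.82 RPKM in the sorted cells, below every day 4 library, a difference of -5.14 (SE 0.45, adjusted p = 6.53e-06). FZD7 was at 2.39, 1.79, 1.97 and 2.73 RPKM, also below every day 4 library, with a difference of -5.05 (SE 0.29, adjusted p = 4.71e-07). WNT5B differed by -3.65 (SE 0.35, adjusted p = 1.13e-05) and ROR1, at 1.51, 2.01, 1.34 and 1.95 RPKM, by -3.47 (SE 0.31, adjusted p = 7.03e-06). WNT3 differed by -1.74, FZD2 by -1.45, LRP5 by -1.36 and FZD3 by -0.46, and WNT6, at low counts, was also called lower. WNT5A, WNT5B and their receptor ROR1 were thus all lower in the sorted cells.

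Higher in the sorted cells were FZD4, FZD6, FZD8, FZD9, LRP6 and, among ligands, WNT2B. FZD4 was at 19, 18.1, 21.3 and 20.8 RPKM, above all 4 day 4 libraries, a difference of 2.51 (SE 0.27, adjusted p = 2.25e-05). FZD8 was at 7.79, 10.1, 9.24 and 10.5 RPKM and differed by 2.54 (SE 0.62, adjusted p = 0.00477). FZD9 was at 2.05, 1.45, 1.42 and 1.82 RPKM and differed by 2.52 (SE 0.24, adjusted p = 9.62e-06). FZD6 was at 11.9, 11.7, 11.4 and 8.26 RPKM and differed by 1.95 (SE 0.30, adjusted p = 0.000251), while LRP6 differed by 0.97 (SE 0.11, adjusted p = 3.19e-05). FZD10 was at 18.8, 24.2, 14 and 13.4 RPKM, a difference of -1.65 (SE 0.23, adjusted p = 0.000118) from day 4, and still the Frizzled with the second largest share.

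Day 7 endoderm and day 7 SOX17+CD43- cells, both of which express SOX17, had different receptor sets. Of 21 members tested 12 were higher in endoderm and 8 lower (71.6% of all genes called, 35.3% higher and 36.3% lower). FZD5 was at 0.960, 0.894, 0.649 and 0.892 RPKM in the sorted cells against 1207, 1289.7 and 1073 RPKM in endoderm, a difference of 10.47 (SE 0.19, adjusted p = 1.08e-12). FZD7 differed by 6.94 (SE 0.16, adjusted p = 5.16e-12), WNT9A by 5.64 (SE 0.41, adjusted p = 1.02e-07) and WNT4 by 4.87 (SE 0.42, adjusted p = 4.57e-07). The smaller excesses in endoderm were 4.26 for FZD8, 2.84 for WNT3, 2.84 for FZD2, 2.29 for ROR1, 1.51 for FZD4, 1.47 for LRP5, 0.71 for FZD1 and 0.56 for RYK on the log2 scale. In the other direction FZD10 had 0 fragments in all 3 endoderm libraries and was at least 905-fold lower there, against a floor of 3 counts over the group. WNT5A differed by -5.61 (SE 0.32, adjusted p = 1.02e-08), WNT11 by -4.01 (SE 0.34, adjusted p = 3.78e-07) and FZD9 by -2.46 (SE 0.33, adjusted p = 2.75e-05), followed by WNT2B at -2.18, FZD6 at -1.73, LRP6 at -0.72 and FZD3 at -0.61. Of these, WNT2B was below 1 RPKM on average in both groups. The 2 SOX17-expressing populations came from different media, and one was sorted while the other was not. Their library numbers also lie in separate series.

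Within day 7 no member was called between SOX17+ and SOX17- cells by edgeR's quasi-likelihood test, in WT (1.60% of all genes called) or in KO (0.670% called). At an unadjusted p under 0.05 there were 7 of 23 members tested in each genotype. Over all 22978 genes tested, 2619 were under that threshold in WT and 1832 in KO. DESeq2 and limma each called 1 in WT and 1 in KO. Fits that blocked on replicate number or on consecutive library numbers also called members in each genotype. WNT11 was nearest in WT, at 1.29, 1.49, 1.12 and 1.48 RPKM in SOX17+ and 2.45, 2.48, 1.92 and 5.08 RPKM in SOX17- cells. The groups did not overlap, and the difference was -1.15 (SE 0.32, adjusted p = 0.0679). KO had 1.34, 1.29, 0.825 and 1.37 RPKM in SOX17+ and 2.85, 2.85 and 1.87 RPKM in SOX17- cells, also without overlap, a difference of -1.04 (SE 0.34, adjusted p = 0.217). ROR1 differed by -0.66 (SE 0.21, adjusted p = 0.124) in WT and by -0.87 (SE 0.22, adjusted p = 0.0587) in KO. FZD9 had the opposite sign in WT, at 0.62 (SE 0.20, adjusted p = 0.151). Mesenchyme markers moved with the sort: the 6 summed to 22.5 to 57.4 RPKM in WT SOX17+ and 89.8 to 170.0 RPKM in WT SOX17- cells, and to 19.1 to 45.9 and 81.1 to 137 RPKM in KO. Their part in the WNT11 and ROR1 values was not tested. A difference between genotypes in the SOX17 contrast was called for 0 members (0% of all genes called, 0 by DESeq2 and 0 by limma). At an unadjusted p under 0.05 there were 0 members, beside 240 of all 22978 genes tested.

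KO and WT sorted cells did not differ in any member by edgeR's quasi-likelihood test. The calls were 0 in day 7 SOX17+ cells (0.0566% of all genes called, 4 members at an unadjusted p under 0.05), 0 in day 7 SOX17- cells (0.00870% called, 3 members) and 0 in day 12 SOX17+CD43- cells (0.187% called, 1 member). Over all 22978 genes tested, 860, 1094 and 707 were at an unadjusted p under 0.05 in these comparisons, in the same order. The members tested numbered 23 in each. DESeq2 and limma also called 0 members in each. FZD9 was the member nearest to a call on day 7. In SOX17- cells it was at 1.98, 1.61 and 2.15 RPKM in KO and 1.30, 0.813, 0.986 and 1.28 RPKM in WT, without overlap, a difference of 0.81 (SE 0.22, adjusted p = 0.658). In SOX17+ cells KO was at 2.68, 2.53, 1.82 and 2.93 RPKM and WT at 2.05, 1.45, 1.42 and 1.82 RPKM, a difference of 0.58 (SE 0.19, adjusted p = 0.944).

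From day 7 to day 12, SOX17+CD43- endothelial cells gained LRP5 and lost WNT5A and WNT11. Of 23 members tested in WT 4 rose and 6 fell (17.8% of all genes called, 8.57% higher and 9.23% lower), and in KO 2 rose and 5 fell (13.3% called, 6% higher and 7.29% lower). LRP5, which also serves Norrin together with FZD4, was at 4.03, 5.57, 5.08 and 4.47 RPKM on day 7 and 15.8, 26.7, 25.1 and 18.5 RPKM on day 12. KO had 4.45, 4.86, 3.11 and 4.84 RPKM on day 7 and 17.3, 25.8, 15.6 and 22.8 RPKM on day 12. Every day 12 library was above every day 7 library in both genotypes, with changes of 2.17 (SE 0.20, adjusted p = 1.7e-08) in WT and 2.22 (SE 0.20, adjusted p = 1.17e-08) in KO. LRP6 went from 19.8, 19, 21.9 and 18.4 to 29, 29.4, 32.7 and 27.9 RPKM in WT, a smaller rise of 0.59 (SE 0.17, adjusted p = 0.0125). WNT5A was at 0.642, 0.893, 0.899 and 1.24 RPKM on day 12, below all day 7 libraries, a change of -1.04 (SE 0.29, adjusted p = 0.0116). WNT11, at 0.584, 0.405, 0.610 and 0.837 RPKM, changed by -1.14 (SE 0.35, adjusted p = 0.0249), and FZD7 by -0.77 (SE 0.21, adjusted p = 0.0102). WNT5B changed by -0.97, FZD2 by -0.68 and WNT3 by -0.67 on the log2 scale, and WNT9A rose by 3.50. Of these, WNT3 and WNT9A were below 1 RPKM on average on both days. FZD6 rose in WT by 0.58 (SE 0.20, adjusted p = 0.0425). In KO WNT9A rose by 2.27 and the falls were -2.11 for WNT2, -1.22 for WNT11, -1.07 for WNT5A, -0.69 for FZD9 and -0.63 for FZD7. There WNT9A and WNT2 were below 1 RPKM on average on both days. In WT the FZD6 call was lost in 7 of 8 fits with 1 library left out, and that of WNT11 in 5 of 8. The called members of WT numbered 5 without day 12 replicate 2 or 3 and 6 without day 7 replicate 2. In KO they numbered 2 without day 7 replicate 1 or day 12 replicate 2, 3 without day 7 replicate 4 and 4 without day 12 replicate 4, against 7 with all libraries.

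The single KO library of SOX17-CD43- cells from day 12 allows no test. It held 3.22 RPKM of WNT11, above the mean of that ligand in every other group but below the 5.08 RPKM of 1 day 7 WT SOX17- library, and 32.1 RPKM of FZD4. Its 6 mesenchyme markers summed to 146 RPKM, against 30.9 to 54.8 RPKM in the KO SOX17+CD43- cells of that day.

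Blood cells of day 12 had no ligand at 1 RPKM or more. At that level SOX17-CD43+ cells had 6 of 10 Frizzleds and 3 of 4 co-receptors, the fewest receptors of the 19 groups. In WT SOX17-CD43+ cells 4 of 23 members tested were higher than in SOX17+CD43- endothelial cells and 15 lower (66.2% of all genes called, 32.3% higher and 33.9% lower). The 6 blood markers summed to 1005 to 1248 RPKM in these cells and the 6 endothelial markers to 18.3 to 48.2 RPKM, against 1716 to 2180.1 RPKM in the endothelial cells. FZD10 was at 0, 0.141 and 0 RPKM in blood and 16.1, 21, 19.7 and 12.5 RPKM in endothelium, a difference of -8.40 (SE 0.44, adjusted p = 2.35e-15). ROR1 was at 0.0442, 0.0602 and 0.0173 RPKM in blood, with a difference of -5.26 (SE 0.36, adjusted p = 7.76e-13). FZD4 was at 0.652, 0.852 and 0.778 RPKM against 19.8, 17.1, 24 and 26.8 RPKM, a difference of -4.80 (SE 0.20, adjusted p = 3.1e-17). All 3 were below 1 RPKM in every blood library.

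The co-receptors LRP6 and LRP5 were also lower in blood, with differences of -2.13 (SE 0.19, adjusted p = 2e-10) and -1.11 (SE 0.21, adjusted p = 3.75e-05). FZD6 was at 6.27, 5.89 and 3.98 RPKM, a difference of -1.54 (SE 0.22, adjusted p = 1.08e-06), and yet held the largest Frizzled share there. FZD5 and FZD2 were higher in blood. FZD5 was at 1.63, 1.65 and 2.43 RPKM against 0.724, 0.792, 0.840 and 0.579 RPKM in endothelium, a difference of 1.42 (SE 0.23, adjusted p = 5.77e-06). FZD2 was at 3.09, 4.02 and 4.10 RPKM against 2.15, 2.24, 1.60 and 2.19 RPKM, a difference of 0.92 (SE 0.23, adjusted p = 0.000842). Neither pair of groups overlapped, although both levels were low. FZD7 was higher by 0.51 on the log2 scale, and FZD8, FZD9, FZD1 and RYK were lower, at -2.19, -1.66, -1.64 and -0.26. Among ligands, all below 1 RPKM on average in both fractions, WNT10B was called higher in blood and WNT2B, WNT3, WNT5A, WNT9A and WNT11 lower. The FZD7 and RYK calls were lost in fits with 1 library left out.

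SOX17+CD43+ cells lay between these fractions for several members. With 2 libraries, 1 of 23 members tested was higher than in SOX17+CD43- cells and 7 lower (26.5% of all genes called, 15.5% higher and 10.9% lower). FZD4 was at 11.3 and 10.3 RPKM, FZD10 at 8.37 and 6.99 RPKM and ROR1 at 0.781 and 0.651 RPKM. These were below the endothelial and above the blood libraries, with differences from endothelium of -0.97 (SE 0.19, adjusted p = 0.00032), -1.12 (SE 0.28, adjusted p = 0.00356) and -1.15 (SE 0.28, adjusted p = 0.00321). WNT5A, LRP6, FZD8 and LRP5 differed by -1.09, -0.79, -0.77 and -0.64. Of these, WNT5A was below 1 RPKM on average in both fractions. FZD5 was the member that was higher, by 0.82 (SE 0.26, adjusted p = 0.0215). Without replicate 1 the calls numbered 4 and without replicate 2 they numbered 2. The fraction held both sets of markers, with endothelial sums of 890.0 to 892 RPKM and blood sums of 223 to 279 RPKM, and the part of mixed cells in these values was not tested.

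**Figure D5:**
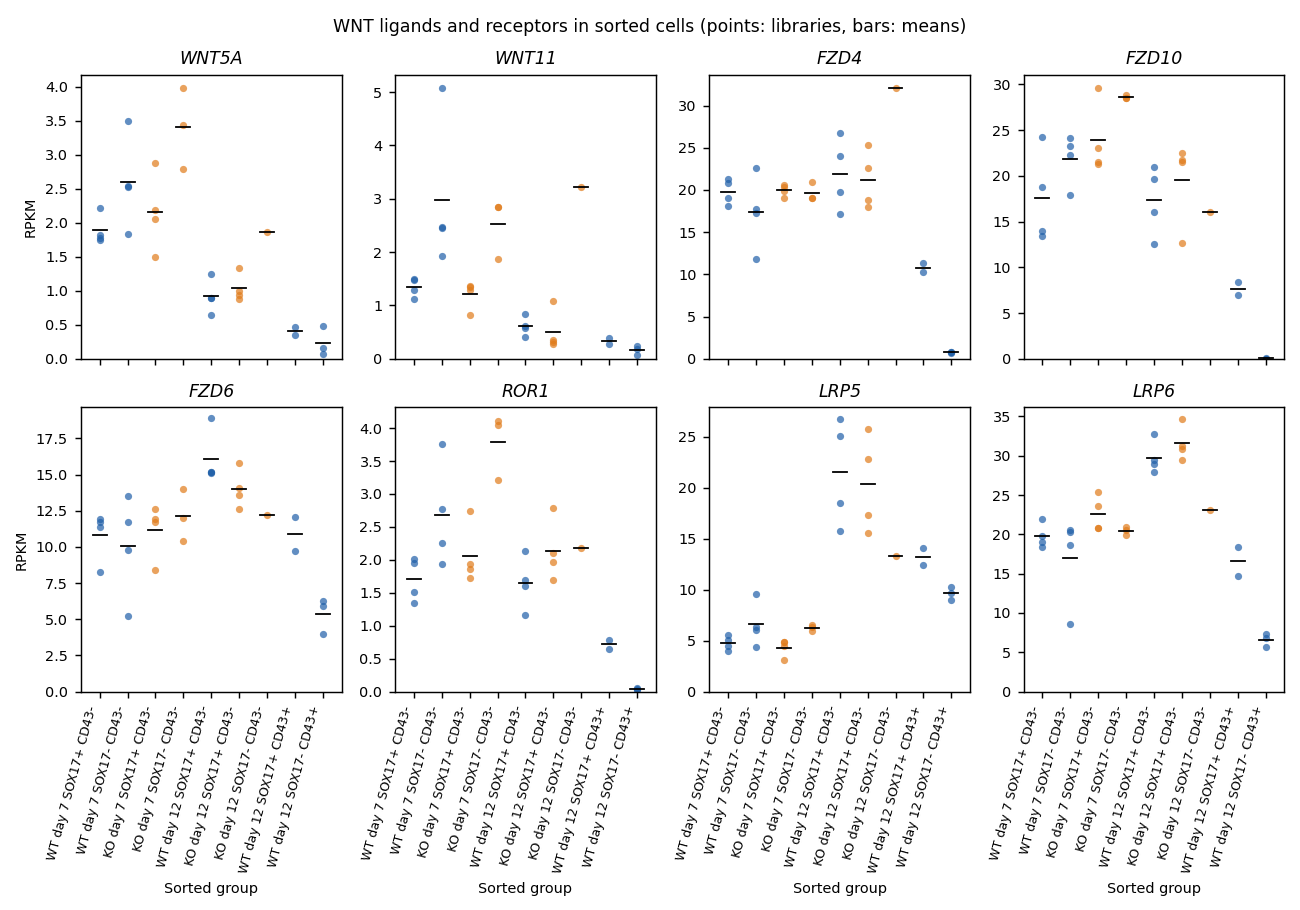
Level in RPKM of 8 members in the 9 sorted groups, with points for libraries and bars for means. LRP5 lies at 4.03 to 5.57 RPKM in day 7 WT SOX17+ cells and 15.8 to 26.7 RPKM on day 12, and FZD4, FZD10 and ROR1 step down from CD43- through SOX17+CD43+ to SOX17-CD43+ cells.

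The rest of the pathway was read from 4 lists, some genes standing in more than 1 of them. From day 0 to day 2 of WT mesoderm, 8 of 16 tested genes for WNT secretion and other receptors rose and 4 fell, where 45.1% of all genes were called (22.2% higher, 22.9% lower). WLS, the carrier of lipid-bearing ligands, rose by 8.32 (SE 0.35, adjusted p = 5.59e-14), and RSPO3, a secreted enhancer of receptor signalling, had a ratio of counts of 687 (95% counting interval 235 to 3335). Of 10 target genes 9 rose and 0 fell, with a median of 7.09 against -0.04 to 0.05 over all genes in these comparisons. LEF1 rose by 8.01 (SE 0.48, adjusted p = 1.29e-11) and SP5, a direct target, was at least 2099-fold higher. Of 15 intracellular transducers 6 rose and 4 fell, with TCF7L1, a repressor of targets in stem cells, at -4.71 (SE 0.24, adjusted p = 1.04e-12). Of 12 secreted inhibitors 3 rose and 5 fell, and DKK1 rose by 10.00 (SE 0.82, adjusted p = 1.75e-09).

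From day 2 to day 4, where 51.4% of all genes were called (25.9% higher, 25.5% lower), 7 of 12 inhibitors rose and 2 fell, among them DKK2 at 8.85 (SE 1.2, adjusted p = 2.14e-06). Secretion and other receptor genes had 4 rises and 6 falls, with RSPO2 at 10.23 (SE 0.73, adjusted p = 2.79e-10) and the WNT5A receptor ROR2 at -5.03 (SE 0.52, adjusted p = 7.17e-08). Target genes had 3 rises and 4 falls, with SP5 at -3.16 (SE 0.25, adjusted p = 6.33e-09). AXIN2, another target, moved the other way, from 18.2 ± 3.48 RPKM on day 2 to 72.4 ± 20.6 RPKM on day 4 (SD, n = 4). In endoderm 8 of 10 targets rose and 1 fell by day 2 (median 2.29, 55.5% of all genes called, 28.7% higher and 26.8% lower), and 2 rose and 5 fell by day 4 (42.4% called, 22.2% higher and 20.2% lower). LGR5, a receptor for RSPO proteins, was the secretion list's largest change at that step, at 6.73 (SE 0.27, adjusted p = 1.04e-09).

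In day 7 SOX17+ cells, set against day 4 cultures, 0 of 10 targets were higher and 9 lower (median -4.05), and 0 of 9 inhibitors were higher and 7 lower, where 62.8% of all genes were called (31.7% higher, 31.1% lower). Among the transducers TCF7 differed by -3.25 (SE 0.17, adjusted p = 3.1e-07) and LEF1 by -2.16 (SE 0.14, adjusted p = 8.7e-07). From day 7 to day 12 in WT endothelium 0 targets rose and 5 fell (17.8% of all genes called, 8.57% higher and 9.23% lower), SP5 with -5.03 (SE 0.47, adjusted p = 5.23e-08), while RSPO3 rose by 2.88 (SE 0.39, adjusted p = 7.39e-06). Between SOX17+ and SOX17- cells of day 7, the edgeR fit without a block called no ligand, Frizzled or co-receptor. In that fit ROR2 was lower in SOX17+ cells in both genotypes, with differences of -0.69 (SE 0.15, adjusted p = 0.0104) in WT and -0.73 (SE 0.16, adjusted p = 0.0212) in KO. In SOX17-CD43+ blood cells 11 of 15 secretion and receptor genes were lower and 3 higher than in endothelium, where 66.2% of all genes were called (32.3% higher, 33.9% lower). WLS differed by -6.59 (SE 0.31, adjusted p = 1.94e-16) and the receptor-degrading ligase RNF43 by 4.65 (SE 0.25, adjusted p = 4.68e-15). Of 15 transducers 8 were lower and 2 higher, including CTNNB1, which encodes β-catenin, at -1.73 (SE 0.10, adjusted p = 4.69e-14). At 66.7% the share of transducers called was near that of all genes.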

How the data were processed

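Per the submitters' processing notes, the authors trimmed reads with cutadapt 1.18, counted fragments per gene with featureCounts on GRCh38 and processed the counts in R 3.2.2. The aligner, the annotation release and the strand setting were not found in the labels or file headers. Of the values deposited by the authors both kinds were used: raw fragment counts per gene, and log2 values of RPKM with a pseudocount of 1 and TMM scaling. Levels were obtained by undoing that log2. Symbols came from GENCODE 29 (58039 of 58302 identifiers matched).

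Differences were tested on the counts with edgeR 4.0.16 in R 4.3.3 (TMM, filterByExpr with a minimum count of 10 and total of 15, quasi-likelihood F test), and p-values were adjusted by Benjamini-Hochberg across every gene of a fit, with 0.05 as threshold. Unsorted mesoderm (24 libraries), endoderm (12), the protocols (21) and sorted cells (28) were fitted separately, as were 8 and 7 libraries for day 7 SOX17+ cells against day 4 and against day 7 endoderm. Alternatives were DESeq2 1.42.0, limma 3.58.1 on the log2 values, other size factors, no filter, the compared groups alone, a replicate block and leaving out each library. Fits were tested on simulated data. Counting intervals are exact at 95% and cover counting error only.

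Members and lists were chosen with earlier results of these data known. Members at 1 RPKM or more in at least 1 group were described by role. Fold changes are given for called members, up to 10 in each direction, with library values for up to 4 in each direction. They are mainly members at 1 RPKM or more in the higher group. Those given for members below 1 RPKM in every compared group are marked. For the pathway lists up to 3 called genes per list and comparison were named. Values of members that missed the threshold were added where a comparison had no call. The labels do not say that replicates came from separate cultures, so p-values measure the spread between these libraries. Replicate numbers in the titles paired the samples, with every pair's correlation over 0.1, for KO against WT on day 0 (0.301 to 0.816), for KO against WT in day 7 SOX17+ cells (0.277 to 0.526) and for WT day 12 against day 7 (0.165 to 0.277).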

Additional observations from a re-analysis of the deposited data

Results flagged for a closer look

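Of 170 group levels of members with 4 libraries, 20 had 1 library far from the other 3, measured as its gap to the nearest of them over the whole range. For a single level chance gives about 1 in 20. The same libraries recur across genes, so the levels are not independent and the count cannot be tested against that rate. In the KO mesoderm of day 2, replicate 4 was low for WNT5A (77.8 RPKM, others 141 to 148) and FZD8 (4.12 RPKM, others 8.47 to 9.37). On day 4 WT replicate 3 was high for WNT5A (138 RPKM, others 35.8 to 48.1) and FZD6 (5.01 RPKM, others 2.01 to 2.17), and low for FZD7 (38.1 RPKM, others 83.8 to 91.9) and LRP5 (9.26 RPKM, others 13.3 to 13.5). KO replicate 4 of day 4 was high for WNT5A (166 RPKM, others 35.5 to 45.9). On day 0 replicate 1 was high for FZD7 in WT (404 RPKM, others 198 to 225) and in KO (344 RPKM, others 199 to 216), and low for LRP5 in KO (8.47 RPKM, others 10.4 to 10.8).

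Among the sorted SOX17+ cells of day 7, WT replicate 1 was high for WNT5A (2.22 RPKM, others 1.74 to 1.82), and WT replicate 4 was high for FZD1 (2.02 RPKM, others 1.00 to 1.09) and low for FZD6 (8.26 RPKM, others 11.4 to 11.9). KO replicate 4 was also high for FZD1 (2.20 RPKM, others 1.52 to 1.58), and KO replicate 3 was low for WNT11 (0.825 RPKM, others 1.29 to 1.37). In WT SOX17- cells of day 7 replicate 4 was low for LRP6 (8.56 RPKM, others 18.7 to 20.5). In SOX17+CD43- cells of day 12, replicate 3 was low for FZD2 in WT (1.60 RPKM, others 2.15 to 2.24) and in KO (1.43 RPKM, others 2.18 to 2.26). WT replicate 3 was also high for FZD6 (18.9 RPKM, others 15.1 to 15.2) and KO replicate 3 low for FZD10 (12.7 RPKM, others 21.5 to 22.5).

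The change from day 0 differed between the endoderm and mesoderm protocols by edgeR's test of the difference itself (endoderm minus mesoderm, log2). On day 2 the difference was 4.81 for WNT4, 4.81 for FZD5, 4.52 for FZD2, 2.46 for FZD8, 2.31 for FZD7 and 1.20 for FZD6. It was -7.34 for WNT5A, -6.78 for WNT5B, -4.99 for FZD10, -4.83 for WNT3A, -2.87 for FZD4, -2.25 for ROR1 and -1.83 for FZD1. On day 4 it was 9.39 for FZD5, 7.06 for WNT4, 6.50 for FZD8, 2.24 for WNT3, 2.22 for FZD4, 1.76 for FZD2, 1.70 for FZD7 and 0.42 for RYK. It was -10.90 for FZD10, a fitted value with few or no fragments in endoderm, and -9.78 for WNT5A, -4.47 for WNT5B, -3.13 for WNT11, -1.46 for ROR1 and -0.72 for FZD3.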

How the results depend on the processing

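Of 176 named fold changes 0 reversed. With each library left out in turn 1355 of 1474 recomputed values passed the threshold, and 33 named results lost the call at least once. Under the other settings 1034 of 1057 passed, and 15 results lost it. Of 279 group levels at 1 RPKM or more, 36 moved by over 1 SD without TMM scaling. limma called 8 members against 13 for endoderm day 4, and 6 against 10 for WT day 12 against day 7. The compared groups alone gave 3 against 6 for endoderm day 7. For day 7 SOX17+ against SOX17- cells, with 0 calls, no filter gave 3 in WT and 2 in KO, DESeq2 1 and 1, limma 1 and 1, and the KO groups alone 3. In that comparison the replicate block gave 1 in WT and 2 in KO, and a block of consecutive library numbers in the titles gave 2 and 1, while the numbers pair these samples only in name. In the comparisons listed above as paired, the replicate block left 0, 0 and 10 calls, as without it.

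The number of called members with 1 library left out ran from 21 to 23 (WT mesoderm day 2), 14 to 20 (WT day 4), 20 to 21 (KO day 2), 15 to 19 (KO day 4), 13 to 15, 11 to 13 and 4 to 8 (endoderm days 2, 4 and 7), 12 to 14 and 14 to 18 (protocols, days 2 and 4), 15 to 18 (day 7 SOX17+ against day 4), 19 to 20 (endoderm against SOX17+), 0 to 1 in each genotype (SOX17+ against SOX17-), 5 to 9 and 2 to 8 (day 12 against day 7, WT and KO), 17 to 19 (SOX17-CD43+) and 2 to 8 (SOX17+CD43+). It was 0 in every KO against WT comparison. Members at few fragments, such as WNT9B after day 2 and FZD10 in endoderm, are limited by depth, and a ratio there has a wide interval.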
